A study of Mus musculus with 15 samples.

Results

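The semaphorin, ephrin, netrin and slit guidance genes were read in sorted preSertoli cells of the mouse fetal testis at E15.5 (embryonic day). The genes were picked by a rule on symbols that uses no measured value, although the set was chosen with earlier results of these data known. They are the semaphorins of classes 3 to 7, the plexins, the neuropilins, the ephrins, the Eph receptors, the netrins, the slits and the robo receptors. The rule found 63 genes among the 27697 symbols of the deposited RNA-seq table. Robo1 was not analysed here.

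RNA came from C57BL/6J x CD-1 (F1) embryos, whose preSertoli cells were purified by flow cytometry from about 165 embryos and divided into 3 independent pools of about equal cell number. The pools are called libraries 1, 2 and 3 after the numbered columns of the table. Their poly-A RNA was sequenced in the same lane as 50 bp single-end reads, and the submitters describe them as biological replicates. How the cells were marked for sorting is not in the RNA-seq labels, whereas a DNase-seq sample of the same stage is named for a Sox9-driven fluorescent reporter. All 3 belong to 1 group, so no difference between conditions was tested. The series of 15 samples also holds 8 DNase-seq and 4 H3K27ac or input libraries that were not used here.

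Guidance genes encode ligands and receptors that were first studied in growing axons and that also act between cells in other organs, where they steer adhesion, repulsion and migration. Semaphorins signal through plexins, and most class 3 semaphorins, which are secreted, need a neuropilin as co-receptor. Ephrins and Eph receptors are both held on cell surfaces, so that a signal can run into either of the touching cells. Ephrin-A proteins are tethered to the membrane by a lipid anchor and ephrin-B proteins span it. Netrins are laminin-related secreted proteins, and slits are large secreted ligands of robo receptors.

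Most of these genes were on in the preSertoli libraries. Levels are given as CPM, the expected read count of a gene scaled to a common library total. The libraries held 47766422, 56007688 and 51725096 expected counts, so that 1 CPM stands for 47.8, 56.0 and 51.7 expected counts in libraries 1, 2 and 3. Expression was called where all 3 libraries reached 1 CPM. By that rule 54 of the 63 guidance genes were expressed (85.7%), against 47.1% of all symbols and 61.1% of the 17456 symbols that RefSeq lists as protein-coding, a class that holds all 63 members. A mean of 10 CPM or more was reached by 36 guidance genes (57.1%), against 35.4% of all symbols and 47.9% of protein-coding ones. A mean of 100 CPM or more was reached by 9 (14.3%), against 9.17% of all symbols and 12.9% of protein-coding ones. The share at the highest level was thus close to the protein-coding background, and the excess lay at the lower thresholds. CPM is not divided by transcript length, and no transcript lengths were used here, so the levels of different genes are given without ranking them against each other. The same limit holds for the shares above, because a longer transcript reaches a CPM threshold more easily. The part of transcript length in the excess was not tested.

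**Figure D1:**
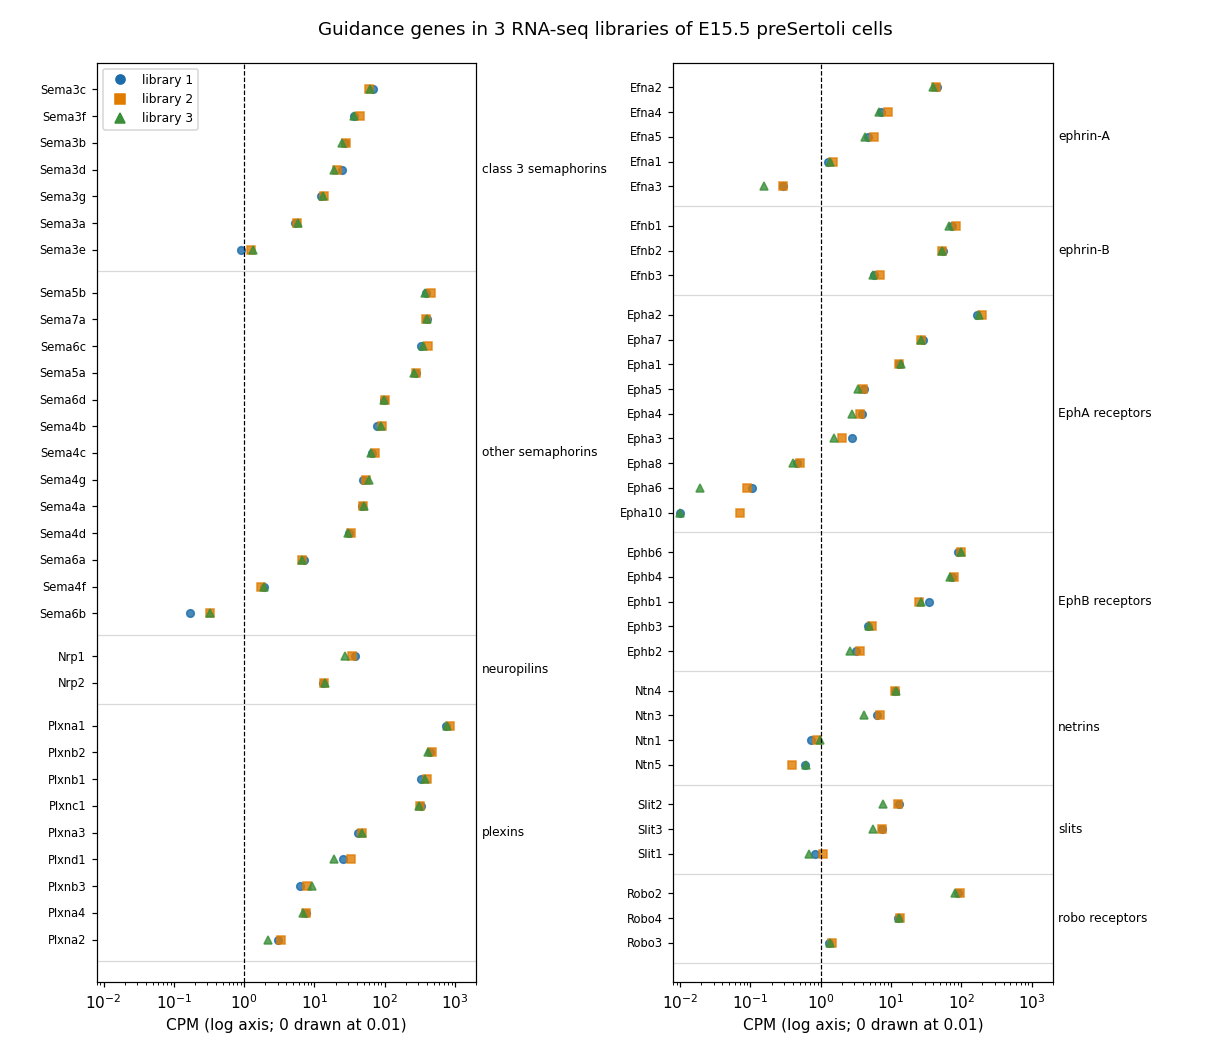
CPM of the 63 guidance genes in preSertoli RNA-seq libraries 1 to 3, on a log axis and by family; each symbol is 1 library and the dashed line marks 1 CPM. The 3 libraries lie close together for most genes, and 9 genes have at least 1 library left of the line.

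The label of the cells was checked against marker genes. All 15 Sertoli markers listed were expressed, among them Sox9 at 278, 283 and 217 CPM, and no measured marker of any list was at 0 in all 3 libraries. Genes of other testis cells were present as well. The 7 fetal Leydig cell markers summed to 1729, 2050.4 and 1249.9 CPM and the 8 measured peritubular and interstitial markers to 202, 259.7 and 131 CPM in libraries 1, 2 and 3. The 10 endothelial markers summed to 39.8, 39.7 and 37.9 CPM, the 10 germ cell markers to 71.5, 54.5 and 58.6 CPM, the 6 measured blood and macrophage markers to 26.3, 37.6 and 26.1 CPM and the 5 mesonephric ones to 11.6, 10.2 and 9.86 CPM. The 6 granulosa markers summed to 8.23, 9.98 and 7.41 CPM and the 7 neuronal and glial markers to 183, 189 and 212 CPM. The Sertoli list summed to 10269, 10736 and 9839.8 CPM. Library 3 had the lowest sum in 7 of the 9 lists, all but the germ cell and the neuronal and glial ones. A sum is weighted to its highest genes, and the single markers did not all follow it. Of the 15 Sertoli markers 4 were lowest in library 3, among them Amh at 2167, 2660.0 and 1319 CPM in libraries 1, 2 and 3. Of the 2 expressed mesonephric markers 1 was lowest there, and the blood and macrophage sums of libraries 1 and 3 were nearly equal. In bulk libraries fewer cells of a type and less RNA per cell cannot be told apart. Which cells in the sorted pools carried the guidance genes was not tested.

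The sequence around the start of these genes was read from the RefSeq promoter table of build GRCm38.p6, which gives 250 bases before and 50 bases after each start. Of the 63 members 55 had an entry, with 71 windows in all. Efnb3, Ntn1, Plxna1, Plxna4, Sema3b, Sema3f, Sema6a and Slit1 had none. The windows below are shown because they hold examples rich and poor in CG pairs both among members that were expressed and among members that were not. By the ratio of CG pairs to the number expected from the C and G content, Efna5 is the highest expressed member. Its ratio of 1.10 lies above those printed. Capitals mark each CG pair, the site of DNA methylation in mammals. Sema7a and Plxnc1, a ligand and its receptor, lie at chr9:57939862-57940161 on the plus strand and chr10:94944796-94945095 on the minus strand. Epha2, at chr4:141300971-141301270 on the plus strand, is a receptor with a mean above 100 CPM and fewer CG pairs. Robo4, at chr9:37401722-37402021 on the plus strand, has the lowest ratio of CG pairs to the number expected of all members with an entry. It was expressed. Epha8, at chr4:136956767-136957066 on the minus strand, and Ntn5, at chr7:45683772-45684071 on the plus strand, were below 1 CPM.
Sema7a: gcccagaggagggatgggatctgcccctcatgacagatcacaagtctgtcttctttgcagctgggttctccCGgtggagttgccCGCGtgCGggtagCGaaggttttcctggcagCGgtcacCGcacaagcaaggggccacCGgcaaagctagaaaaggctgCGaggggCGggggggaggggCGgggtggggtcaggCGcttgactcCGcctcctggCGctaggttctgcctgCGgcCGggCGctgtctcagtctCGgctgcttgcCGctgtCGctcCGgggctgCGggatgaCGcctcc
Plxnc1: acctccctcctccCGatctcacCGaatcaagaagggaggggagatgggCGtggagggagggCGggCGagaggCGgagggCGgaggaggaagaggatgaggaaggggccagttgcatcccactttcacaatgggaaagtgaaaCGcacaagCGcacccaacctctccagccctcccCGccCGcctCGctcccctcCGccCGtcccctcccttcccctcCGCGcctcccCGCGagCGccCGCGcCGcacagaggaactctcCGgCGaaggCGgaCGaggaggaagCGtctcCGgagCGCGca
Epha2: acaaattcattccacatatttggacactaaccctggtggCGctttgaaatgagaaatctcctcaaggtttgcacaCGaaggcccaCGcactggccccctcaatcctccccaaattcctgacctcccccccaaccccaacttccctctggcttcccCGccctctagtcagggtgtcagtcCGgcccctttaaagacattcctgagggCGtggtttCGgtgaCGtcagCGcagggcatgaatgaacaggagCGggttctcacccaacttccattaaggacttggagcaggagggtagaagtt
Robo4: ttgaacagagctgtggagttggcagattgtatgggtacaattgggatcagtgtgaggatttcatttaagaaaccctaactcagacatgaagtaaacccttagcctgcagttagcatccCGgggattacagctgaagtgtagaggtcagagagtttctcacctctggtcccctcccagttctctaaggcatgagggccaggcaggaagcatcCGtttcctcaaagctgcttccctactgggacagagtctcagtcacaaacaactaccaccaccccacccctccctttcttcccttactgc
Epha8: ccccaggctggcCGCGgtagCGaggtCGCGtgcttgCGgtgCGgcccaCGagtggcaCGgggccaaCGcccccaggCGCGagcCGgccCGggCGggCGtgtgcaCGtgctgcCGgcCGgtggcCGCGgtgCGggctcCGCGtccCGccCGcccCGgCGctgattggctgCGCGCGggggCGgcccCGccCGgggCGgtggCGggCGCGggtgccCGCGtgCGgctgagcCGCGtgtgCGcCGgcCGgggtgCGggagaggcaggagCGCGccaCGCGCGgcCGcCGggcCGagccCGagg
Ntn5: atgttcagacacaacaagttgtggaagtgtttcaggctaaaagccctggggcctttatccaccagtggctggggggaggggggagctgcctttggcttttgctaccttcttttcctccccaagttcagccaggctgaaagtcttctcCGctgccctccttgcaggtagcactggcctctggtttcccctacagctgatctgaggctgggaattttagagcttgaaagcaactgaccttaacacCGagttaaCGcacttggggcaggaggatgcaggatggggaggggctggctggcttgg

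The secreted class 3 semaphorins were expressed in 6 of 7 cases, and the median of their mean levels was 21.4 CPM (SD of the library medians 2.87, n = 3). Sema3c, which guides the cells that divide the outflow tract of the heart, stood at 67.3, 60.7 and 60.9 CPM in libraries 1, 2 and 3, a mean of 63.0 ± 3.71 CPM (SD, n = 3, as for all means that follow). Sema3f, a ligand with a preference for neuropilin 2, had 36.6, 44.0 and 36.6 CPM, with library 2 above the other two. Sema3b stood at 27.1, 28.2 and 24.5 CPM and Sema3d at 24.5, 21.1 and 18.8 CPM. Both were lowest in library 3, Sema3d by the wider margin. Sema3g was at 13.1 ± 0.622 CPM and Sema3a, the first collapsin known in axons and a ligand of neuropilin 1, at 5.57 ± 0.243 CPM. Their coefficient of variation, the SD over libraries as a share of the mean, was 4.73% and 4.37%. Sema3e, which binds plexin D1 without a neuropilin, crossed the threshold in 2 of 3 libraries (0.888, 1.25 and 1.34 CPM) and was not called expressed.

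Among the 13 other semaphorins, which are membrane-bound in their native form, 12 were expressed, and the median of their mean levels was 67.4 CPM (SD of the library medians 4.76, n = 3). Taken with class 3, 18 of 20 semaphorins were expressed with a median of 44.2 CPM (SD of the library medians 2.47, n = 3). Sema7a, the only semaphorin with a lipid anchor and a ligand of plexin C1 and integrin beta 1, stood at 399, 387 and 398 CPM in libraries 1, 2 and 3. Its coefficient of variation of 1.75% was below the median of 5.76% for expressed symbols within 1.25-fold of its mean, and its libraries lay close together. Sema5b reached 384, 459 and 369.6 CPM and Sema5a 280.1, 283 and 259 CPM. These class 5 proteins carry thrombospondin repeats beside the sema domain, and both were lowest in library 3. Sema6c had 330.3, 411 and 346 CPM, with library 2 highest. Sema6d, a ligand of plexin A1, stood at 97.0, 99.9 and 96.2 CPM, a coefficient of variation of 1.99%.

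All 6 class 4 genes were expressed. Sema4b had 77.3, 92.6 and 89.8 CPM and Sema4c, a ligand of plexin B2, 65.7, 72.8 and 63.8 CPM. Sema4g stood at 54.2 ± 4.98 CPM, Sema4a at 49.4 ± 1.54 CPM and Sema4d, the classical ligand of plexin B1, at 31.1 ± 1.71 CPM. No class 4 gene had a coefficient of variation over 10%. Sema4f was near the threshold at 1.85 ± 0.111 CPM, and Sema6a, a ligand of plexins A2 and A4, stood at 6.80 ± 0.319 CPM. Sema6b was not expressed, with 8, 18 and 17 expected counts or 0.167, 0.321 and 0.329 CPM in libraries 1, 2 and 3.

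Both neuropilins were expressed. Nrp1, which binds class 3 semaphorins and the vascular growth factor VEGF-A, stood at 37.2, 34.8 and 27.0 CPM in libraries 1, 2 and 3. Library 3 lay below the other two, and the coefficient of variation of 16.1% compares with a median of 6.20% for expressed symbols within 1.25-fold of its mean. Nrp2 stood at 13.3, 13.6 and 14.0 CPM, a coefficient of variation of 2.78%. The median of the pair was 23.3 CPM (SD of the library medians 2.48, n = 3).

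All 9 plexins were expressed, 4 of them at a mean above 100 CPM, and the median of their mean levels was 45.7 CPM (SD of the library medians 2.96, n = 3). Plxna1, the signalling partner of neuropilins for class 3 semaphorins, stood at 753, 852 and 768 CPM in libraries 1, 2 and 3, a mean of 791 ± 53.5 CPM. Plxnb2 had 436, 478 and 418 CPM and Plxnb1 333, 394 and 379 CPM. These B plexins activate the GTPase RhoA through the exchange factors Arhgef11 and Arhgef12, which were expressed at 88.5 ± 1.29 CPM and 146 ± 8.78 CPM. Plxnc1, the receptor of Sema7a, stood at 329, 321 and 311 CPM with a coefficient of variation of 2.87%. Ligand and receptor of this pair were therefore both above 100 CPM in every library, as was integrin beta 1 (Itgb1) at 585, 533 and 524 CPM.

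The means of the other plexins lay under 100 CPM. Plxna3, a partner of Nrp2 for Sema3f, stood at 45.7 ± 2.96 CPM and Plxna4, a partner of Nrp1 for Sema3a, at 7.34 ± 0.466 CPM. Plxnd1, the receptor of Sema3e and a gene best known from vessels, had 25.1, 33.2 and 19.2 CPM, a coefficient of variation of 27.1% with library 2 highest and library 3 lowest. Plxna2, a receptor of class 6 semaphorins, had 3.08, 3.34 and 2.20 CPM, lowest in library 3 as well. Plxnb3, a receptor of Sema5a, ran the other way with 6.26, 7.78 and 9.36 CPM, highest in library 3.

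Of the ephrin-A ligands 4 of 5 were expressed, with a median of 4.86 CPM (SD of the library medians 0.710, n = 3). Efna2 had 45.1, 44.3 and 39.2 CPM in libraries 1, 2 and 3, with library 3 lowest. Efna4 stood at 7.18, 9.07 and 6.71 CPM and Efna5 at 4.66, 5.65 and 4.28 CPM. Both were highest in library 2 and lowest in library 3. Efna1, a ligand of Epha2, was just above the threshold at 1.28, 1.48 and 1.37 CPM, or 61, 83 and 71 expected counts. Efna3 was not expressed, at 0.286, 0.293 and 0.155 CPM.

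All 3 ephrin-B ligands were expressed, with a median of 53.6 CPM (SD of the library medians 1.30, n = 3). Efnb1, an X-linked gene whose mutations disturb growth of the skull, had 73.6, 83.4 and 66.5 CPM in libraries 1, 2 and 3, and its order of libraries was again 2, 1 and 3 from high to low. Efnb2, the arterial ephrin, stood at 55.1, 52.6 and 53.3 CPM with a coefficient of variation of 2.43%. Efnb3 stood at 6.01 ± 0.75 CPM.

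Of the Eph receptors, the EphA genes were expressed in 6 of 9 cases with a median of 3.43 CPM (SD of the library medians 0.549, n = 3), and the EphB genes in 5 of 5 with a median of 29.1 CPM (SD of the library medians 5.18, n = 3). With so few genes in a class these counts are a description, and CPM is not compared between the classes. Epha2 stood at 169, 195 and 181 CPM in libraries 1, 2 and 3, a mean of 181 ± 12.8 CPM, and was the EphA gene with a mean above 100 CPM. Epha7 had 28.3, 27.0 and 26.7 CPM and Epha1 12.9, 12.8 and 13.7 CPM, with a coefficient of variation of 3.09% and 3.70%. These receptors were thus nearly level between pools. Epha5 stood at 3.83 ± 0.365 CPM and Epha4, a receptor that binds ephrins of both classes, at 3.43 ± 0.549 CPM. Epha3 had 2.74, 2.00 and 1.55 CPM, the widest spread of all expressed members at 28.8%, against a median of 12.8% for expressed symbols within 1.25-fold of its mean.

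The remaining EphA genes were below the threshold of expression in every library. Epha8 had 22, 28 and 21 expected counts (0.461, 0.5 and 0.406 CPM). Epha6 had 5, 5 and 1 counts. Epha10, whose kinase domain is thought to be inactive, had 4 counts in library 2 and 0 in libraries 1 and 3, where a count of 0 allows up to 3 counts, or 0.0628 and 0.0580 CPM. This floor covers counting error only.

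Of the EphB receptors, Ephb6, which lacks kinase activity, stood at 91.0, 100.4 and 97.6 CPM in libraries 1, 2 and 3. Ephb4, the partner of ephrin-B2 in veins and arteries, had 73.6, 78.7 and 70.1 CPM. Their coefficient of variation was 4.97% and 5.80%. Ephb1 had 35.0, 25.3 and 27.0 CPM, with library 1 above the other two and a coefficient of variation of 17.8%. Ephb3 stood at 5.00 ± 0.387 CPM and Ephb2 at 3.18 ± 0.510 CPM. All 3 ephrin-B genes and all 5 EphB genes were therefore present in the same cell preparation, although the bulk libraries do not show whether 1 cell carries both sides.

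Of the 4 netrins measured 2 were expressed, and the median was 3.36 CPM (SD of the library medians 0.715, n = 3). Ntn4, a netrin that binds laminin in basement membranes, stood at 11.4, 11.4 and 11.6 CPM in libraries 1, 2 and 3, with a coefficient of variation of 1.25%, the smallest of all expressed members. Ntn3 had 6.31, 7.08 and 4.20 CPM and was lowest in library 3. Ntn1, the founding netrin, remained under 1 CPM in every library (0.733, 0.893 and 0.967 CPM, or 35, 50 and 50 expected counts), and so did Ntn5 (0.597, 0.393 and 0.626 CPM).

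The netrin receptors, which are not members, were uneven. In a list of 13 netrin receptors and related ligands, 12 were measured and 6 expressed (50.0%), close to the 47.1% of all symbols and below the 61.1% of protein-coding ones. Neo1 (neogenin), which also binds repulsive guidance molecules, stood at 505, 494 and 481 CPM. Unc5b, a repulsive netrin receptor of endothelial and epithelial cells, had 19.9, 23.7 and 19.0 CPM and Unc5c 4.59, 4.06 and 2.25 CPM. Dcc, the attractive receptor of Ntn1 in axons, straddled the threshold at 0.977, 1.22 and 0.867 CPM. Unc5a (0.270 ± 0.133 CPM) and Unc5d (0.440 ± 0.0572 CPM) were below it. The neogenin ligands Rgmb (24.3 ± 1.10 CPM) and Rgma (11.2 ± 1.92 CPM) were expressed.

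Slits were expressed in 2 of 3 cases with a median of 6.78 CPM (SD of the library medians 1.03, n = 3). Slit2 had 12.9, 12.6 and 7.77 CPM in libraries 1, 2 and 3 and Slit3 7.39, 7.36 and 5.59 CPM. For both genes libraries 1 and 2 were nearly equal and library 3 was lower, at a log2 ratio of -0.71 and -0.40 to the mean of the other two. Slit1 reached 1 CPM in library 2 alone (0.816, 1.09 and 0.677 CPM).

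All 3 robo receptors measured were expressed, with a median of 12.9 CPM (SD of the library medians 0.482, n = 3). Robo2, a slit receptor required in kidney and nervous system development, stood at 88.8, 95.4 and 82.0 CPM in libraries 1, 2 and 3, a mean of 88.7 ± 6.69 CPM. The table holds a second row of the same symbol at 17.2, 17.7 and 13.9 CPM, a mean of 16.2 ± 2.05 CPM, and the row of the higher mean is the one used. Robo4, known from endothelium, had 12.4, 13.4 and 13.1 CPM. Robo3, which in mammals binds slits poorly, was just above the threshold at 1.30, 1.46 and 1.37 CPM, or 62, 82 and 71 expected counts.

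**Figure D2:**
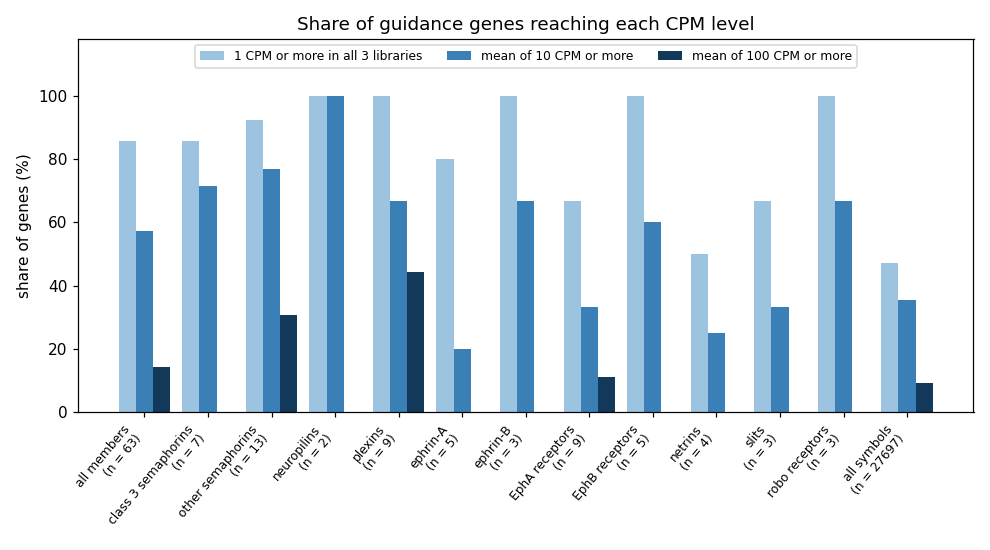
Share of guidance genes, by family and beside all symbols of the table, that reached 1 CPM in all 3 libraries, a mean of 10 CPM or a mean of 100 CPM; n is the number of genes. Every plexin, neuropilin, ephrin-B, EphB and robo gene reached the first level, and a mean of 100 CPM was reached only among plexins, semaphorins outside class 3 and EphA receptors.

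The members nearest to the expression threshold bound the count of 54. By mean level, Sema3e, Efna1 and Robo3 lay just above 1 CPM, and Ntn1, Slit1 and Ntn5 just below it. The number of expressed members was 57 at a threshold of 0.5 CPM and 43 at 5 CPM.

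Genes listed as co-receptors, binding partners or effectors of the guidance genes were mostly expressed, in lists put together with the earlier results of these data known. Of 25 co-receptors and effectors of semaphorins and plexins, 22 were expressed, among them Itgb1, the Src-family kinase Fyn (264 ± 15.1 CPM) and Farp1 (251 ± 10.3 CPM), a plexin-binding exchange factor. The actin-oxidising enzymes Mical1, Mical2 and Mical3 stood at 122 ± 4.79 CPM, 181 ± 4.89 CPM and 154 ± 8.41 CPM. Of 20 Eph and ephrin effectors 15 were expressed, including the Rac activator Tiam1 (249 ± 3.66 CPM), the protease Adam10 (236 ± 14.2 CPM), which cuts ephrins, and the kinase Abl1 (209.7 ± 9.27 CPM). Ngef (ephexin), an exchange factor bound by EphA receptors in neurons, was at 0.900, 1.14 and 0.889 CPM and missed the threshold. All 16 measured slit and robo effectors were expressed, among them dystroglycan (Dag1, 1117 ± 35.3 CPM), which binds slits, the heparan sulfate carrier Gpc1 (428 ± 35.8 CPM) and Enah (194 ± 4.38 CPM), an actin regulator downstream of robo. Srgap2 and Srgap3, GTPase-activating proteins that bind robo receptors, stood at 114 ± 1.00 CPM and 109 ± 5.41 CPM. In each of these lists the share expressed lay above the 61.1% of protein-coding symbols. Because the lists were made with earlier results known, these shares are a description only.

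Many guidance genes were lowest in the same pool. Of the 54 expressed members, 29 were lowest in library 3 (53.7%), against 37.5% of all expressed symbols, and 29 were highest in library 2 (53.7%), against 30.2% of all expressed symbols. Library 1 was lowest in 17 members (31.5%, against 30.1%) and highest in 16 (29.6%, against 34.6%). Only 8 members were lowest in library 2 (14.8%, against 32.4%) and 9 highest in library 3 (16.7%, against 35.1%). The members' median log2 ratio of library 3 to the mean of libraries 1 and 2 was -0.10, against -0.01 for all expressed symbols. The largest drops were those of Slit2 (-0.71), Ntn3 (-0.67), Epha3 (-0.62), Plxnd1 (-0.60), Plxna2 (-0.54), Nrp1 and Epha4 (both -0.41), while Plxnb3 stood at 0.41.

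Markers of cells that lie between the testis cords were also lowest in library 3. All 7 fetal Leydig cell markers and all 8 measured peritubular and interstitial markers were expressed, and every one was lowest there, with log2 ratios of -1.61 to -0.47 and of -0.97 to -0.49. Pdgfra, a receptor of interstitial cells, had 32.0, 34.0 and 20.2 CPM and Col1a1, a fibrillar collagen, 112, 152 and 67.3 CPM. Of the 15 Sertoli markers 4 were lowest in library 3, namely Amh (anti-Müllerian hormone), Sox9, Dhh and Sox8. Their log2 ratios were -0.87, -0.37, -0.22 and -0.15, and Amh had 2167, 2660.0 and 1319 CPM. Gata4, at 725, 745 and 761 CPM, was highest there, as were Dmrt1, Nr5a1, Clu, Ptgds, Cldn11 and Aard. The median log2 ratio of the Sertoli list was 0.04, that of the 8 expressed germ cell markers -0.11 and that of the 5 expressed endothelial markers -0.06. It was -0.29 for the 4 expressed blood and macrophage markers and -0.15 for the 3 expressed granulosa markers, each of which lay below 0. It was 0.07 for the 2 expressed mesonephric markers and 0.12 for the 4 expressed neuronal and glial markers. Without library 3 the median was 7.37 CPM for slits and 24.7 CPM for neuropilins. The count of expressed members was 54, but by its rule that count cannot fall when a library is left out. The part of these cells in the levels of Slit2, Slit3, Nrp1, Plxnd1 and the other members low in library 3 was not tested.

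**Figure D3:**
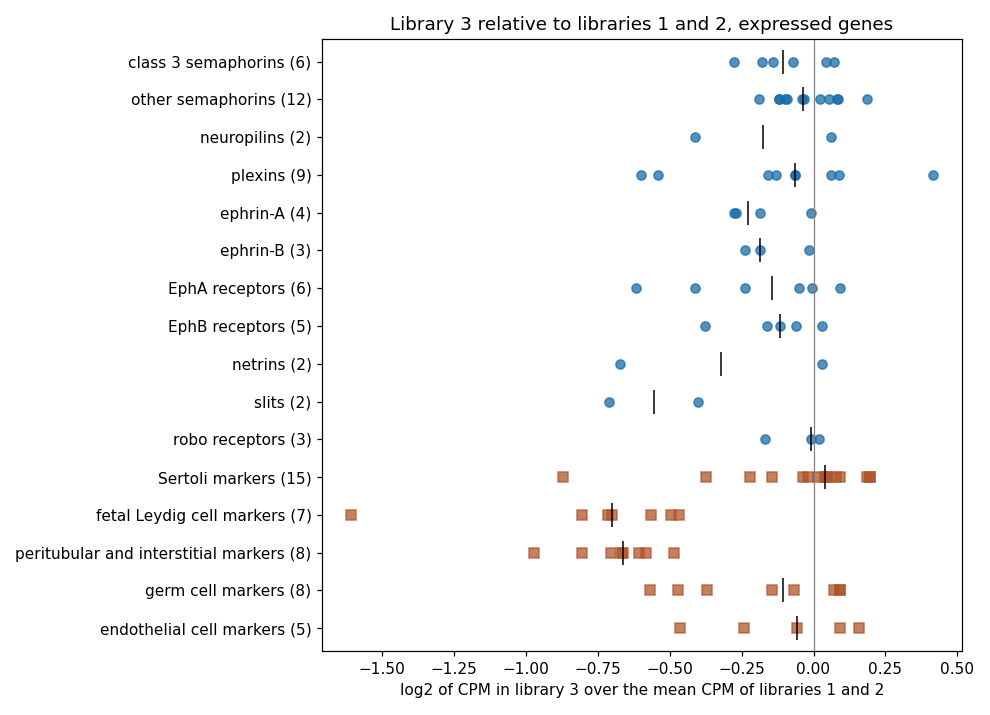
Log2 ratio of CPM in library 3 to the mean CPM of libraries 1 and 2 for each expressed guidance gene by family (circles) and for expressed markers of 5 cell types (squares); black bars are medians and the number of genes is in brackets. The fetal Leydig and the peritubular and interstitial markers all lie below 0, as do all expressed slit, ephrin-A and ephrin-B genes. The other guidance families have genes on both sides of 0, with Ntn3, Epha3, Plxnd1 and Plxna2 at -0.67 to -0.54.

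For most other members the libraries lay close together. The median coefficient of variation of the 54 expressed members was 7.33%, against 6.75% for all 13036 expressed symbols, and it ran from 1.25% to 28.8%. A value above 15% was found in 12 members (22.2%), against 11.6% of all expressed symbols, and a value above 25% in 4 (7.41%, against 3.52%). These 4 were Epha3 (28.8%), Plxnd1 (27.1%), Slit2 (25.9%) and Ntn3 (25.5%). The shares of all expressed symbols are not matched to the members on level, and the spread is wider at low means. The median for expressed symbols within 1.25-fold of the mean was 12.8% at Epha3 and 6.51% at Plxnd1. The part of level in the higher shares was not tested. Of the 12, 10 were lowest in library 3 (83.3%), and the same held for 66.0% of all expressed symbols with a value above 15%. Plxnb3 and Ephb1 were the exceptions.

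**Figure D4:**
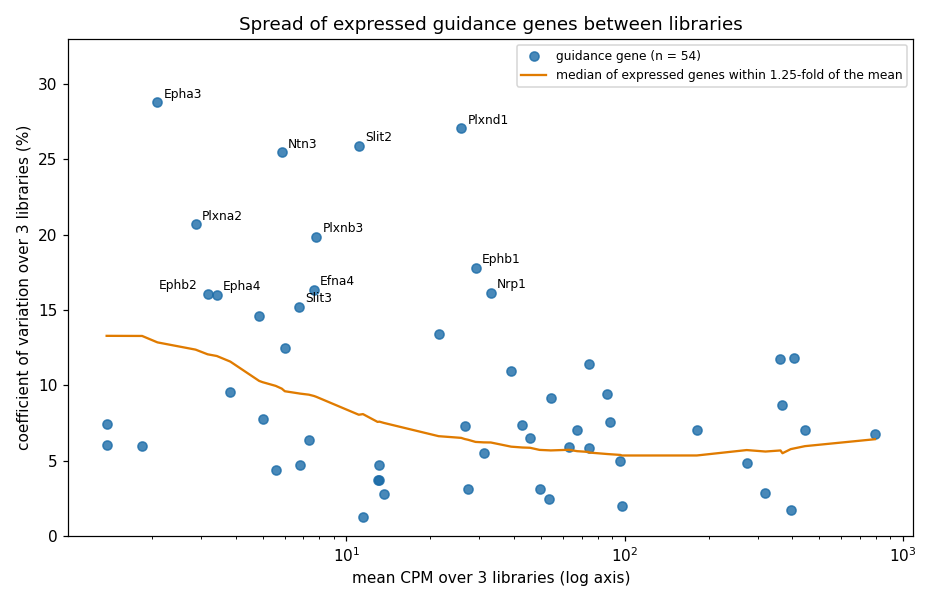
Coefficient of variation over the 3 libraries against mean CPM (log axis) for the 54 expressed guidance genes; the line is the median of expressed genes whose mean lies within 1.25-fold. Genes above 15% are named, and most sit well above the line, while Ntn4 (1.25%), Sema7a (1.75%) and Sema6d (1.99%) sit far below it.

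Windows rich in CG pairs were found both among guidance genes called expressed and among those that were not. The measure is the number of CG pairs divided by the number expected from the C and G content of the window, and a gene with several windows was given its highest value. A ratio of 0.6 or more was found in 34 of the 55 members with an entry (61.8%; Wilson 95% interval 48.6 to 73.5), against 53.6% of the 14342 genes of the table with an entry. Among expressed genes the share was 62.5% of 48 members (interval 48.4 to 74.8), against 77.4% of 8692 genes. Among genes not called expressed it was 4 of 7 members (57.1%; interval 25.0 to 84.2), against 17.0% of 5650 genes. The 4 are Epha8, Epha10, Efna3 and Sema6b. Epha6, Sema3e and Ntn5 lay under 0.6. The difference from other genes was not tested, and the intervals cover counting error only.

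In the windows printed above, the ratio was 0.690 for Sema7a, 0.843 for Plxnc1, 0.460 for Epha2, 0.106 for Robo4, 1.06 for Epha8 and 0.132 for Ntn5. Epha8 thus had 56 CG pairs in 300 bases and a mean of 0.455 CPM, while Robo4 had 2 CG pairs and a mean of 12.9 CPM. The median GC content of the members was 65.3%, against 58.0% of all genes with an entry. The median ratio was 0.681 in members and 0.644 in all genes.

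**Figure D5:**
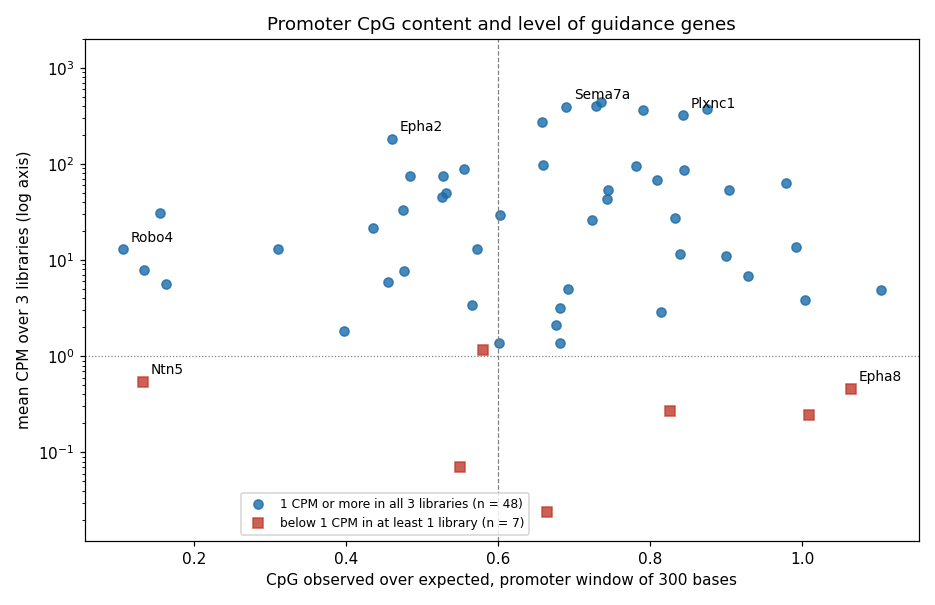
Mean CPM over 3 libraries (log axis) against the CpG observed over expected ratio of the promoter window for the 55 guidance genes with an entry; the dashed line marks a ratio of 0.6 and the dotted line 1 CPM. Genes called expressed (circles) and not (squares) lie on both sides of 0.6, and the 6 genes whose windows are printed are named.

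Short motif letters were counted on both strands of the same windows. The SOX letters ACAATG were in 7 of 55 members (12.7%, against 12.2% of all genes with an entry) and the SOX letters ACAAAG in 10 (18.2%, against 19.1%). Both shares were close to that of all genes. The GATA letters AGATAA were in 3 members (5.45%, against 11.1%), namely Efna4, Epha3 and Robo2. The letters AAGGTCA, bound by NR5A1 (steroidogenic factor 1), were in 4 (7.27%, against 4.59%), namely Nrp1, Ntn5, Sema4b and Sema5a. The TATA letters TATAAA were in 2 (3.64%, against 14.5%), Efnb2 and Slit2. Of the windows printed, that of Plxnc1 holds ACAATG and that of Ntn5 holds AAGGTCA on the opposite strand. Between expressed members and expressed genes with an entry, the shares were 14.6% against 8.92% for ACAATG, 20.8% against 16.0% for ACAAAG, 6.25% against 7.60% for AGATAA, 6.25% against 4.13% for AAGGTCA and 4.17% against 8.61% for TATAAA. These differences were not tested. The SOX letters share their start, ACAA, and each motif was searched for on its own, so a gene can count under several, as Plxnb3 and Sema3a do for both SOX motifs. A match is a description of sequence alone.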

How the data were processed

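The authors deposited 1 RNA-seq table of square roots of scaled RSEM expected counts, per the file headers and the labels. The submitters' processing notes name CASAVA 1.8.2, Bowtie 0.12.7 and RSEM 1.2.0 for this assay and the mouse build mm9. The gene annotation is not stated there. The scaling was taken to set the 75th percentile of each library equal, over genes detected anywhere, and no result given here checks this. The recovery did not use that scaling. It searched each library for the step that makes the squared values whole hundredths of a read. Among the smaller distinct values, on which the step was judged, 100% were whole hundredths (tolerance 0.05 hundredths). That share was part of the search, so it is no independent check. The resulting expected counts were divided by the library's sum. Of 28427 rows, 1 was kept per symbol (the highest mean), leaving 27697. Work was done in Python 3.11.15 with numpy 2.4.6, pandas 2.3.3 and scipy 1.17.1, and the recovery was tested on simulated data. No count model was fitted, because there is 1 group. The submitters call the pools biological replicates, and the columns carry only a number. Whether the authors' counting used strand is not stated, so reads of overlapping or antisense genes, and of near-identical copies, may be shared.

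Named genes were the 3 of highest mean CPM in each family, every member of a family of 5 or fewer, the 3 nearest either side of the threshold, the 3 of largest coefficient of variation, the 3 highest of each effector list and 6 netrin receptors. Others were named after their values were seen, as were the 6 printed promoters and the effectors beyond the third. The members and lists were chosen with earlier results of these data known. The DNase-seq and H3K27ac lists are in build mm9 and gene positions here are in GRCm38, so they were not analysed here.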

Additional observations from a re-analysis of the deposited data

Results flagged for a closer look

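A second row of Robo2 in the deposited table was not used for the level of the gene. It held 821, 989 and 719 expected counts in libraries 1, 2 and 3. Its mean of 16.2 CPM was well above the limit that a count of 0 allows. This second row is 5.46 times below the row used. Both rows were lowest in library 3.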

How the results depend on the processing

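The number of expressed guidance genes stayed at 54 with TMM factors, median-of-ratios size factors, the scale of the deposited values and the sum of rows that share a symbol, both sets of factors computed from their published formulas. It was 54 to 55 without 1 library, where by its rule it cannot fall. It was 55 when the mean had to reach the threshold, 57 at 0.5 CPM and 43 at 5 CPM. With only expressed members, the family medians were 51.8 CPM for semaphorins, 6.26 CPM for ephrin-A, 8.48 CPM for EphA receptors, 8.67 CPM for netrins and 8.93 CPM for slits, since the low members are left out. Under the other scalings and the summed rows, Robo2, whose rows were summed, was the gene whose level moved by more than its SD. The members lowest in library 3 numbered 27 to 28 and those highest in library 2 29 under the same scalings, a check added after seeing the data. The shares of all expressed symbols were not recounted under these scalings, so the excess of the members over them was not checked. The ratio of the members' median coefficient of variation to that of all expressed symbols was 1.09, and it was 0.841 without library 2, 1.32 without library 3 and 0.847 with no filter on low values, so that it lies on both sides of 1. The share of members past the CpG limit was 62.5% among expressed members, 76.4% at a limit of 0.5 and 34.5% at 0.75, these limits, like the libraries left out of the spread, chosen after seeing the data. CPM per kb of coding length and the settings for DNase and H3K27ac peaks were not run, for want of lengths and of mm9 positions. No paired analysis was possible because the RNA-seq libraries form 1 group and no other group has RNA.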
